A study of Mus musculus with 12 samples.

Results

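Interferon response genes are the genes that cells switch on when a type I, II or III interferon reaches its receptor. The set described here holds 43 named genes, taken by symbol from the deposited expression table of mouse fetal liver, with 1 probe set per gene (the one of highest mean over all arrays). Of the 43, 38 had a probe set naming no other gene, out of 19935 such genes in all. Isg15, Gbp2, Igtp and Ifi47 lie on probe sets that name several genes, and Ifi44 on none that is listed, so these 5 were not analysed here. Irf1 alone had more than 1 probe set to choose from.

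The arrays compare livers of wild-type mouse fetuses with livers of fetuses lacking both macroH2A1 and macroH2A2, histone variants with a large extra domain that are found in silent chromatin among other places. There were 6 arrays of each genotype, all from male fetuses of the 129/S6 (taconic) strain at 18.5 days post coitum, with no special treatments. Embryos of both genotypes were mixed before transfer to wild-type recipient females, so the uterine environment was wild type for all of them, and the double knockout carried both deletions in every cell of the fetus. The whole liver was used, so hepatocytes, blood-forming cells, macrophages and vessel cells all contributed RNA, and fewer cells of a type cannot be told apart from less RNA per cell. Neither the recipient female of each fetus nor whether each array is a separate fetus is stated, so the p-values measure the spread between these samples, part of which may be technical.

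Interferons are secreted proteins that bind paired receptor chains and, through the kinases Jak1 and Tyk2, activate transcription factors such as Stat2. Stat2 and Irf9 are subunits of a complex that binds the interferon-stimulated response element (ISRE) upstream of its targets, and the gamma-activated sequence (GAS) is another element of such promoters. The targets include sensors of viral RNA, factors that amplify the response, enzymes and binding proteins that block viral replication, and proteins that shut the response down again. In liver, hepatocytes, resident macrophages (Kupffer cells) and endothelial cells all respond to interferon. A low level of these transcripts is present in uninfected tissue.

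Upstream sequences of 4 members that the results return to are printed to show where the ISRE core occurs in some and not in others. Each is the 250 bases before the RefSeq start site of the gene (build GRCm38.p6), written 5′ to 3′ on the strand of the gene, with matches to the ISRE core (GAAA, any 2 bases, then GAAA, on either strand) in capitals. Ifit3 (chr19:34583279-34583528, plus strand) and Ifit1 (chr19:34640639-34640888, plus strand) each held 2 matches. Oas3 (chr5:120777660-120777909, minus strand) held 1, and Herc6 (chr6:57580742-57580991, plus strand) held 0 in this window.
Ifit3: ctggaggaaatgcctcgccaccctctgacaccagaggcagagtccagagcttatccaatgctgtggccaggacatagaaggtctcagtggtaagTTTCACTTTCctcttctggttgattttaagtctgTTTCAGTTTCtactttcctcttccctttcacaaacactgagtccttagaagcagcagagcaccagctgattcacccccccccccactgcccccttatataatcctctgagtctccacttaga
Ifit1: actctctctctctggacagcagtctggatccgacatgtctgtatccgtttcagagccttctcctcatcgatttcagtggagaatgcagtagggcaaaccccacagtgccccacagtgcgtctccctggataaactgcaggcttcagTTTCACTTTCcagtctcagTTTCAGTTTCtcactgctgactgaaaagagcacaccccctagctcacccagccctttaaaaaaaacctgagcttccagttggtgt
Oas3: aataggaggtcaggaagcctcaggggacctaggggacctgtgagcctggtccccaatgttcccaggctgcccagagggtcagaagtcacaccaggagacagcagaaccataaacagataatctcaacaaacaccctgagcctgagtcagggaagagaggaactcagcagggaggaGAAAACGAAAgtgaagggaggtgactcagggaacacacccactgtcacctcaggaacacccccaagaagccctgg
Herc6: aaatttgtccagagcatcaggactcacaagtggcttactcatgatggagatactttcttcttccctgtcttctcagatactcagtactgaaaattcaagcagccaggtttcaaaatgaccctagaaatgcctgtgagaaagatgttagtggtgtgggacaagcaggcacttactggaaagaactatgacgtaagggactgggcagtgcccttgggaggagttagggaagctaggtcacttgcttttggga
The matches lay between 112 and 156 bases before the start in Ifit3, 75 and 104 in Ifit1, and 65 and 75 in Oas3. Of the 43 members, 32 were found in the RefSeq promoter table. At least 1 ISRE core match was present for 12 of them (37.5%), against 3.46% of all 27025 genes in the table. A GAS core, TTCNNNGAA on either strand, was present for 7 of the 32 (21.9%), against 8.13% of all genes. The ISRE and GAS matches overlapped in 1 of the 40 member windows. A match is a description of the letters, not a binding site. The members absent from that table are Parp14, Mx1, Usp18, Dhx58, Rtp4, Ifi27, Zbp1, Oas2, Parp9, Oas1b and Mx2.

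All values are log2 expression values as the authors deposited them, so a difference of 1 is a doubling, and every difference is double knockout minus wild type. Array medians lay between 7.55 and 7.61. Wild-type replicate 6 and double-knockout replicates 3, 5 and 6 had interquartile ranges over all probe sets of 2.77 to 2.89, and the other arrays of 2.92 to 3.02. Macroh2a1, one of the targeted genes, was at 10.36 ± 0.13 (SD, n = 6) in wild type against 9.59 ± 0.06 in the double knockout, a difference of -0.77 (limma adjusted p = 3.5e-05). Macroh2a2 was at 9.30 and 9.21, a difference of -0.09 (limma adjusted p = 0.99). The sources used here do not give the deleted exons, so whether these probes lie within them is not known, and the Macroh2a2 level checks nothing about the labels. The 12 hepatocyte markers, among them albumin and the apolipoproteins, averaged 13.63 to 13.75 on every array, against a median of 7.81 over all genes, as the liver label implies. Over all genes, 3 of 19935 (0.015%) passed the threshold of adjusted p under 0.05 and all 3 were lower in the double knockout: Macroh2a1, Pip5k1b and Pyurf.

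No interferon response gene passed that threshold in either direction, but most had a lower mean in the double knockout. Of the 38, 34 had the lower mean there, with a median difference of -0.11, while over all genes 41.0% were lower and the median difference was 0.013. At an unadjusted limma p under 0.05, 5 members were lower (Herc6, Oas3, Oas1b, Ifi35 and Stat2) and 0 were higher, against 1.28% of all genes lower at that level (3.93% in either direction). The members span a wide range of levels, from Mx1 with a mean of 6.05 to Isg20 with a mean of 12.15, and their median of 8.48 lies above that of all genes. The 4 members with the higher mean in the double knockout were Ifi27 (0.08), Cmpk2 (0.02), Isg20 (0.02) and Gbp3 (0.01). Gbp3 turned to the lower side when arrays were quantile normalized, and Gbp3 and Isg20 did when arrays were scaled to the same spread. Over all genes the share lower was 46.7% with quantile normalization and 49.2% with scaling. The 41.0% given here and below therefore depends on the scaling of the arrays.

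**Figure D1:**
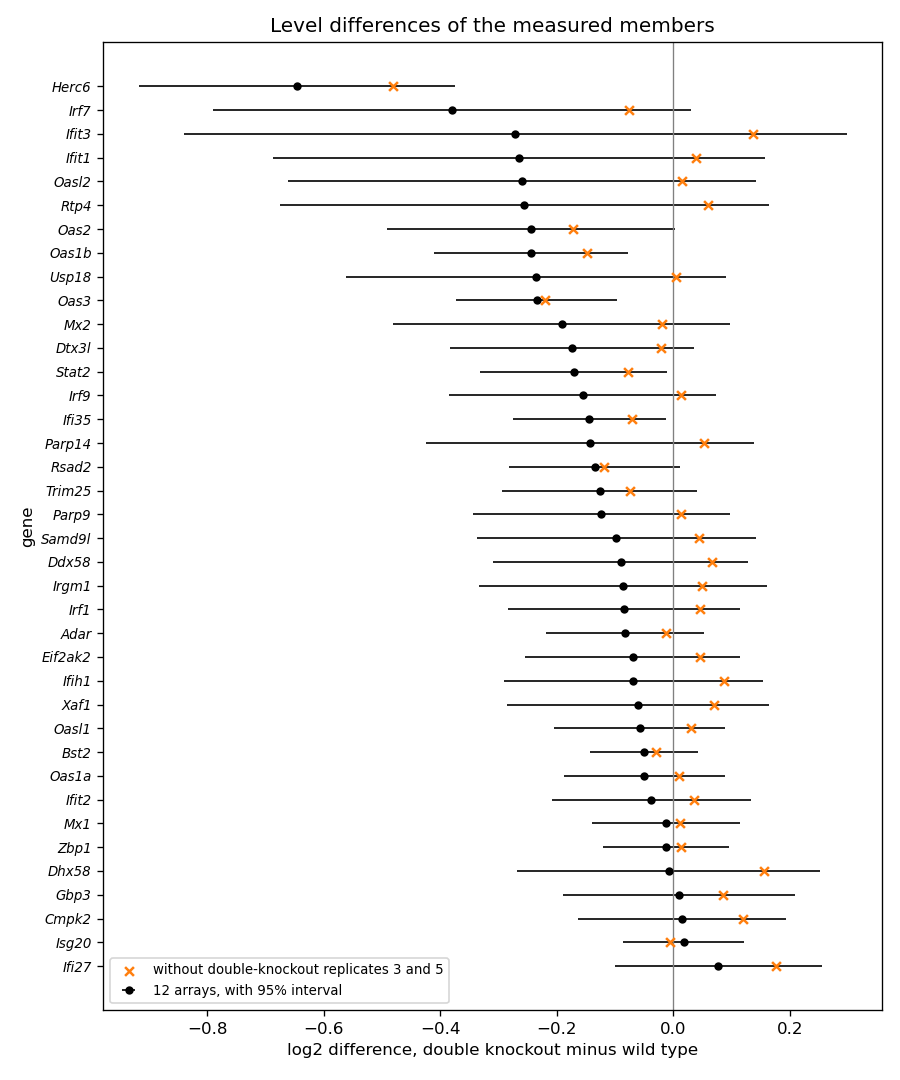
Differences of the 38 measured interferon response genes, double knockout minus wild type on the log2 scale, with 95% confidence intervals from limma (n = 6 arrays per genotype), ordered by difference, and with crosses for the differences without double-knockout replicates 3 and 5. Most points lie left of 0, and Herc6 lies farthest from it at -0.65.

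The sensors of foreign nucleic acid were near equal in the means of the genotypes. Ddx58 encodes RIG-I, a cytoplasmic sensor of viral RNA ends. It ran from 10.26 to 10.49 with a median of 10.35 in wild type, and from 9.93 to 10.59 with a median of 10.30 in the double knockout. The double-knockout arrays lay on both sides of the wild-type ones: replicates 1 and 2 (10.59 and 10.49) were the highest or level with the highest, and replicates 3, 5 and 6 (9.97, 9.93 and 10.18) were below every wild-type array. The difference in means was -0.09 (SE 0.10, limma adjusted p = 0.99). Ifih1, which encodes the long-RNA sensor MDA5, had the same arrangement, from 8.78 to 9.01 (median 8.83) in wild type and from 8.42 to 9.08 (median 8.85) in the double knockout. Its double-knockout replicates 3, 5 and 6 (8.56, 8.42 and 8.70) were again below every wild-type array, and the difference was -0.07 (SE 0.10). Dhx58, the related regulator LGP2, and Zbp1, a sensor of Z-form nucleic acid, each differed by -0.01, with overlapping groups.

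The signalling and transcription factors were lower in mean in all 4 cases, with a median difference of -0.16. Stat2, a subunit of the ISRE-binding complex, read 9.48, 9.49, 9.58, 9.65, 9.52 and 9.51 on wild-type replicates 1 to 6 and 9.39, 9.47, 9.25, 9.67, 9.11 and 9.31 on double-knockout replicates 1 to 6. All double-knockout arrays except replicate 4 were below the lowest wild-type array, and replicate 4 was the highest of all 12. The difference was -0.17 (SE 0.08, exact permutation p = 0.067, limma adjusted p = 0.99). Irf9, the DNA-binding subunit of the same complex, ran from 9.51 to 9.69 (median 9.63) in wild type and from 9.08 to 9.76 (median 9.53) in the double knockout. Its double-knockout arrays split: replicates 3, 5 and 6 stood at 9.18, 9.08 and 9.38, below every wild-type array, and replicates 1 and 2 above every one. Irf7, the factor that amplifies interferon production, read 8.76, 8.95, 8.89, 9.16, 8.70 and 9.25 in wild type against 8.74, 8.83, 8.02, 9.26, 7.91 and 8.66 in the double knockout. Its difference of -0.38 (SE 0.19, limma adjusted p = 0.99) went with low values on replicates 3 and 5, and the groups overlapped. Irf1, an interferon-gamma target that is itself an activator, differed by -0.08, and by 0.02 when its probe sets were averaged.

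The 2′-5′ oligoadenylate synthetases, which make the second messenger that activates RNase L, were lower in mean for all 6 measured members, with a median difference of -0.24. Oas3 read 6.92, 7.03, 6.99, 7.13, 7.11 and 7.34 in wild type against 6.84, 6.88, 6.94, 6.90, 6.70 and 6.85 in the double knockout. The groups overlapped only through wild-type replicate 1 (6.92) and double-knockout replicate 3 (6.94), and replicate 3, one of the low arrays for Irf7, was the highest double-knockout array here. The difference was -0.23 (SE 0.06, exact permutation p = 0.0043, limma adjusted p = 0.99). Oas1b ran from 7.29 to 7.57 (median 7.36) in wild type and from 6.90 to 7.40 (median 7.16) in the double knockout, a difference of -0.24 (SE 0.08, exact permutation p = 0.019, limma adjusted p = 0.99). All its double-knockout arrays except replicate 4 were below every wild-type array. Oas2 and Oasl2 had similar differences (-0.24 and -0.26) with larger errors (0.12 and 0.19), and Oas1a and Oasl1 had small ones (-0.05 and -0.06). The Oas genes are close relatives, and the sources used here do not say how the probe sets separate them.

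The IFIT proteins bind viral RNA that lacks host cap marks. Ifit3 had the widest range of any member: 8.12, 8.51, 8.71, 8.73, 8.10 and 9.06 in wild type against 8.87, 8.75, 7.58, 8.88, 7.33 and 8.20 in the double knockout. Double-knockout replicates 3 and 5 were far below every other array, and replicates 1, 2 and 4 were above all wild-type arrays except replicate 6. Ifit1 ran from 7.39 to 8.01 (median 7.51) in wild type and from 6.71 to 8.01 (median 7.41) in the double knockout, where replicates 3 and 5 stood at 6.71 and 6.77. The differences in means were -0.27 for Ifit3 (SE 0.27), -0.26 for Ifit1 (SE 0.20) and -0.04 for Ifit2 (SE 0.08), none past the threshold.

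The ISG15 system attaches the ubiquitin-like protein ISG15 to other proteins and removes it. Herc6, which encodes the main ISG15 ligase of mouse cells, read 8.69, 8.90, 8.75, 9.08, 9.00 and 9.29 in wild type against 8.62, 8.41, 7.94, 8.60, 8.01 and 8.25 in the double knockout. Every double-knockout array was below every wild-type array, which held for no other member and for 20 genes in all (0.1%). The means were 8.95 ± 0.22 and 8.30 ± 0.29, a difference of -0.65 (95% confidence interval -0.92 to -0.37), or 1.57-fold. It did not pass the threshold (limma adjusted p = 0.33), and over the alternatives the smallest adjusted p was 0.18. The 2-sided exact permutation p was 0.0022, the smallest that the 924 splits of these arrays allow. No gene passed after adjusting that test over all genes. Macroh2a1 had the same exact permutation p and, like Herc6, an adjusted value of 0.998 in that test. That adjustment therefore says little about Herc6. Usp18, the protease that removes ISG15 and restrains the receptor, ran from 10.04 to 10.51 (median 10.26) in wild type and from 9.44 to 10.46 (median 10.13) in the double knockout, a difference of -0.24 (SE 0.15). Its lowest arrays were again double-knockout replicates 3 and 5, at 9.64 and 9.44, and replicate 6 (10.02) was just below the lowest wild-type array. Trim25, the ubiquitin ligase that activates RIG-I, ran from 9.39 to 9.67 (median 9.58) in wild type and from 9.14 to 9.61 (median 9.52) in the double knockout, a difference of -0.13 (SE 0.08).

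**Figure D2:**
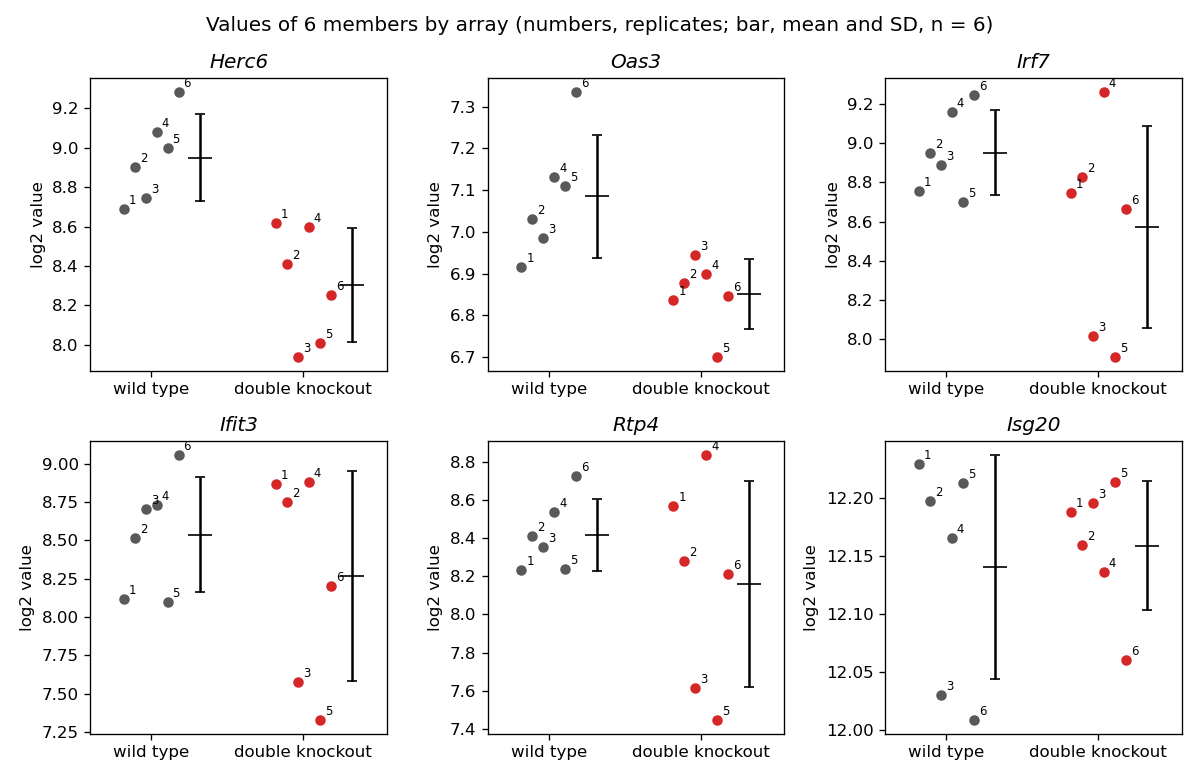
Log2 expression of 6 interferon response genes on each of the 6 wild-type and 6 double-knockout arrays, with genotype means and SDs. The genotypes are separate for Herc6 and nearly so for Oas3. For Irf7 and Rtp4 the double-knockout arrays spread from the lowest to the highest values, and for Ifit3 from the lowest to near the highest. Isg20 lies between 12.01 and 12.23 throughout.

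Herc6 was the only member with such a separation, so its neighbours on chromosome 6 were examined, a choice made after its values were seen. Among genes placed by RefSeq order with a probe set of their own, the next gene on one side is Pyurf, one of the 3 genes past the threshold. Pyurf was at 8.74 ± 0.13 in wild type against 8.29 ± 0.11 in the double knockout, a difference of -0.44 (limma adjusted p = 0.047), and its groups did not overlap either. Its call held under 8 of 22 alternatives, and leaving out 1 array ended it for 10 of the 12 arrays, all but wild-type replicate 3 and double-knockout replicate 2. The next gene on the other side, Ppm1k, a mitochondrial phosphatase of branched-chain amino acid breakdown, was at 10.01 ± 0.10 and 9.74 ± 0.25, a difference of -0.28 (limma adjusted p = 0.99). Over 10 places on each side, 9 of 20 neighbours were lower, and over all genes 41.0% were. Of the 20, 16 are vomeronasal receptor genes at mean levels of 5.51 or lower, and 6 of these 16 were lower. Whether values at such levels can fall further was not tested. Of the 4 neighbours above the median level of all genes, 3 were lower: Pyurf, Ppm1k and Lancl2 (-0.11). Farther along the same chromosome, Pde1c (-0.28), Nod1 (-0.24), Chn2 (-0.23) and Osbpl3 (-0.27), 19, 31, 40 and 71 places from Herc6, were also lower without passing the threshold, and Npy (1.14), 74 places away, was higher without passing it. These genes were named for being among the smallest p on the chromosome. Around Oas3, counted in the same way, 13 of 20 neighbours were lower, with a median difference of -0.009. Of these neighbours, 7 of the 8 above the median level were lower, its relatives and fellow members Oas2 and Oas1a among them. Below that level 6 of 12 were lower.

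**Figure D3:**
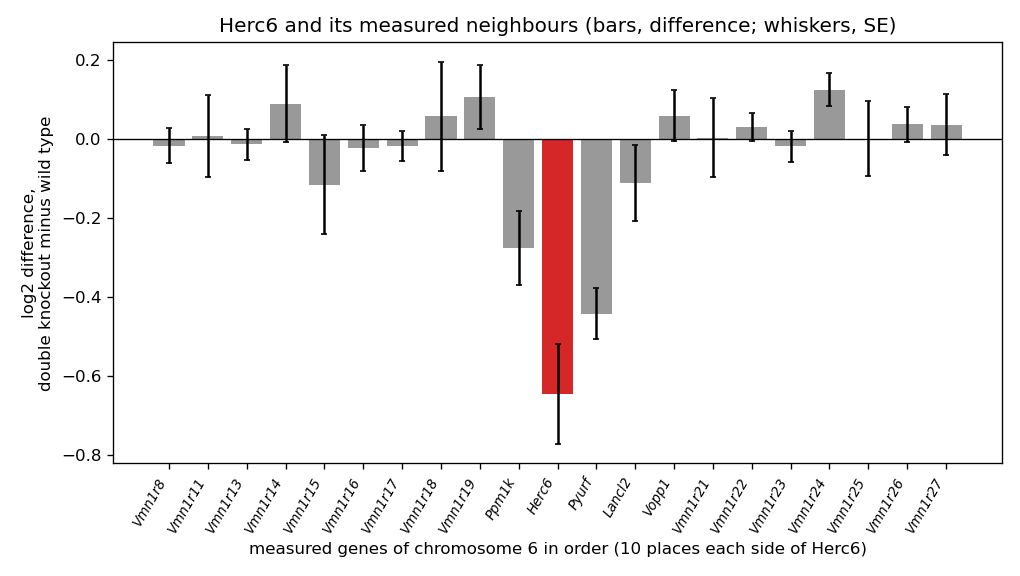
Log2 differences, double knockout minus wild type, of Herc6 and the genes up to 10 places from it in RefSeq gene order, with standard errors from limma. Pyurf (-0.44) and Ppm1k (-0.28) stand beside Herc6 (-0.65), and the vomeronasal receptor genes farther away, all of low level, lie on both sides of 0.

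The other antiviral effectors held both extremes of level. Isg20, an exonuclease that degrades single-stranded RNA, was the highest member, from 12.01 to 12.23 (median 12.18) in wild type and from 12.06 to 12.21 (median 12.17) in the double knockout. Its groups overlapped fully, and the arrays low for Irf7 and Ifit3 were not low for Isg20. Rsad2, which encodes viperin, ran from 11.29 to 11.55 (median 11.45) in wild type and from 11.10 to 11.57 (median 11.27) in the double knockout, a difference of -0.14 (SE 0.07, limma adjusted p = 0.99). Here double-knockout replicates 2 and 1 (11.10 and 11.21) were lowest, not replicates 3 and 5. Cmpk2, a mitochondrial nucleotide kinase, ran from 8.47 to 8.62 (median 8.53) in wild type and from 8.27 to 8.93 (median 8.54) in the double knockout, so its means were close and its spread was not. The GTPases Mx1 and Mx2, which trap viral nucleoproteins, were the lowest members. Mx1 ran from 5.93 to 6.28 (median 6.02) in wild type and from 5.99 to 6.22 (median 6.01) in the double knockout. Mx2 ran from 6.26 to 6.56 (median 6.33) in wild type and from 5.65 to 6.68 (median 6.14) in the double knockout, with double-knockout replicates 3, 5 and 6 below every wild-type array and replicate 1 above every one. Background levels were not analysed here, and how far these values exceed background is not known. Among the rest, the RNA-activated kinase Eif2ak2 (-0.07), the RNA editor Adar (-0.08), Samd9l (-0.10) and the virion tether Bst2 (-0.05) had small differences.

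Parp9 and Dtx3l form a complex that adds ADP-ribose and ubiquitin and promotes interferon signalling. Parp9 ran from 8.90 to 9.11 (median 9.03) in wild type and from 8.58 to 9.23 (median 8.88) in the double knockout, a difference of -0.12 (SE 0.10). Dtx3l ran from 9.49 to 9.75 (median 9.65) in wild type and from 9.15 to 9.74 (median 9.50) in the double knockout, a difference of -0.17 (SE 0.10). For both genes double-knockout replicates 3, 5 and 6 were below every wild-type array, replicate 6 only just so for Dtx3l (9.487 against 9.490). For Parp9 replicates 1 and 4 were above every wild-type array. Parp14 differed by -0.14 (SE 0.13).

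Among the genes of less settled role, Ifi35 ran from 9.34 to 9.55 (median 9.38) in wild type and from 9.06 to 9.40 (median 9.29) in the double knockout, a difference of -0.14 (SE 0.06, exact permutation p = 0.050, limma adjusted p = 0.99). Rtp4, a chaperone of chemosensory receptors that interferon induces, ran from 8.24 to 8.73 (median 8.38) in wild type and from 7.44 to 8.84 (median 8.25) in the double knockout, a difference of -0.26 (SE 0.20). For Rtp4 double-knockout replicates 3 and 5 (7.62 and 7.44) were the lowest arrays and replicate 4 (8.84) was the highest of all 12. Double-knockout replicate 6 (8.21) was just below the lowest wild-type array. Xaf1 differed by -0.06 and Ifi27 by 0.08. Of the interferon-inducible GTPases, which act at the membranes of intracellular pathogens, Irgm1 ran from 8.76 to 9.10 (median 8.89) in wild type and from 8.49 to 9.20 (median 8.79) in the double knockout. Gbp3 ran from 7.11 to 7.73 (median 7.44) and from 7.28 to 7.67 (median 7.45), with no difference beyond the errors (0.01, 95% confidence interval -0.19 to 0.21).

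Most interferon response genes had a larger SD among the double-knockout arrays than among the wild-type ones. It was larger in the double knockout for 31 of 38 members, with a median ratio of 1.66, while over all genes it was larger for 55.9% with a median ratio of 1.08. The count was 20 of 38 without double-knockout replicates 3 and 5, and it turned to 10 of 38 for the residuals of a fit with the macrophage and Kupffer marker mean as a covariate. That fit used 1 slope for both genotypes. On wild-type replicate 6 the marker mean was low (9.40) and the mean over the members was the highest of the 12 arrays (8.76). The cause of the turn was not tested. The ratio was over 2 for 13 of the 38, against 13.2% of all genes. The largest were Irf9 (4.56, from an SD of 0.06 to 0.30), Cmpk2 (4.40), Parp9 (3.88), Mx2 (3.55), Ddx58 (3.35) and Ifih1 (3.11). The smallest were Oas3 (0.57) and Isg20 (0.58). A limma test on the absolute deviations from each genotype mean gave an unadjusted p under 0.05 with the larger spread in the double knockout for 15 members, against 8.29% of all genes. After adjustment over all genes 0 members and 9 genes (0.0451%) passed, with Parp9 (limma adjusted p = 0.053) and Irf9 (0.093) the members of smallest p. On simulated data this test recovered 0% of 50 genes at an SD ratio of 3 and 6% at a ratio of 8, so 0 calls say little about the members. The number of members called was 4 without double-knockout replicate 6, 2 with arrays scaled to the same spread and 1 with array weights.

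**Figure D4:**
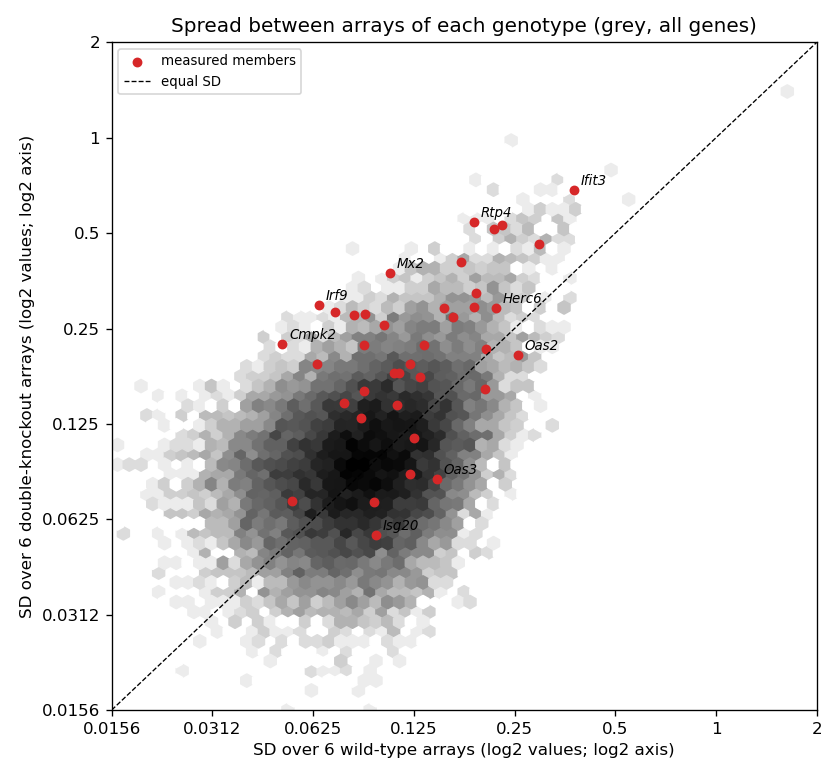
SD over the 6 double-knockout arrays against SD over the 6 wild-type arrays (of log2 values, on log axes) for each of the 38 interferon response genes in red and all genes in grey, with the line of equal SD. Of the red points 31 lie above the line, and Irf9 and Cmpk2 have the largest ratios.

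The wide spread came from the same few arrays in most members. Double-knockout replicate 5 was the lowest of the 12 arrays for 25 of 38 members and among the 3 lowest for 34 (89.5%), where over all genes it was among the 3 lowest for 32.4%. Double-knockout replicate 3 was among the 3 lowest for 32 members (84.2%), against 19.4% of all genes, and replicate 6 for 21 (55.3%), against 32.5%. At the other end, wild-type replicate 6 was among the 3 highest for 29 members (76.3%), against 20.3% of all genes, and double-knockout replicate 4 for 25 (65.8%), against 26.3%. The mean over the 38 members was 8.48, 8.54, 8.54, 8.67, 8.52 and 8.76 on wild-type replicates 1 to 6 and 8.63, 8.56, 8.23, 8.72, 8.14 and 8.41 on double-knockout replicates 1 to 6. Double-knockout replicates 1, 2 and 4 thus lay within the wild-type range, and replicates 3, 5 and 6 below it.

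**Figure D5:**
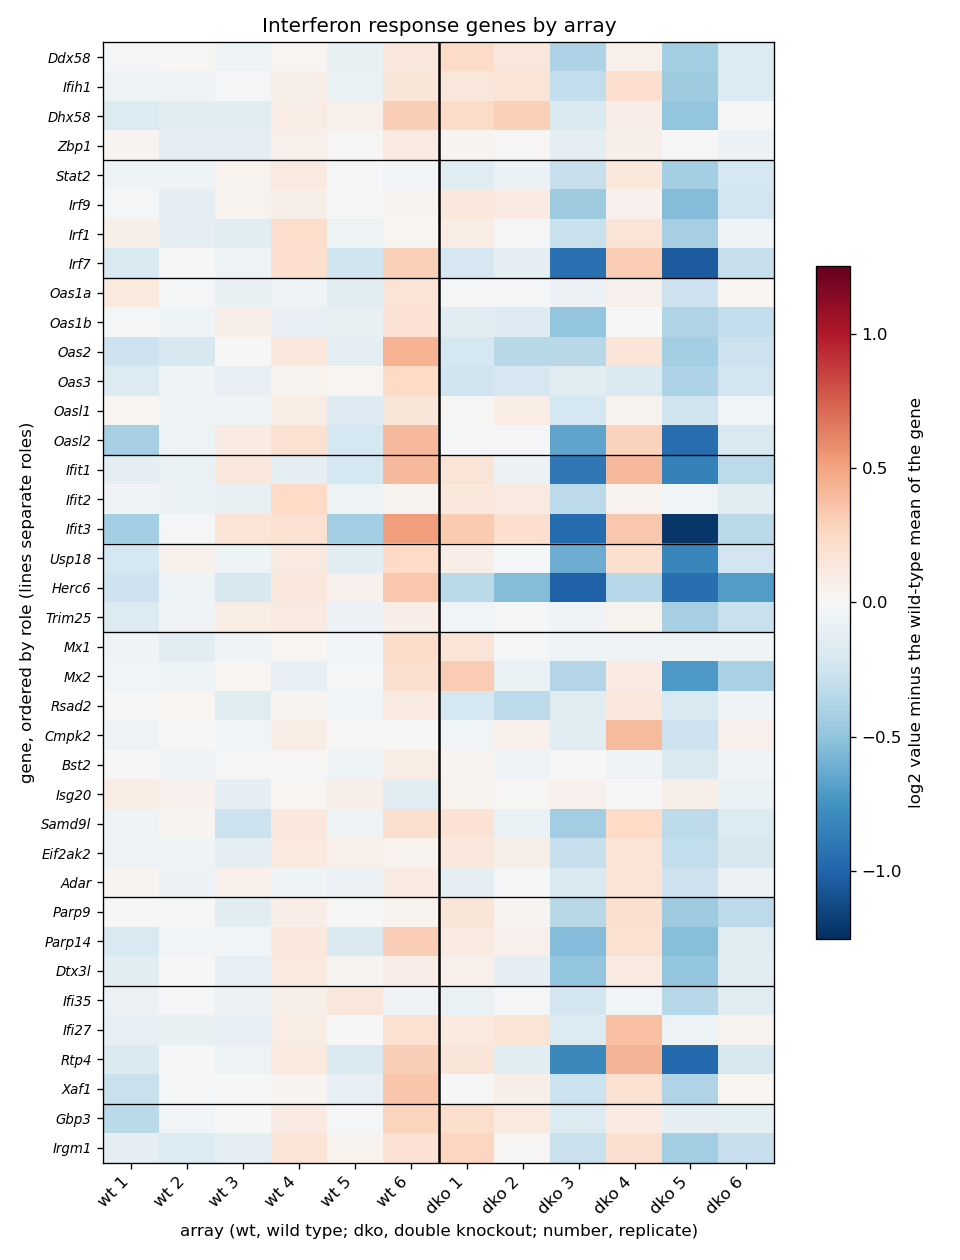
Log2 value of each measured interferon response gene on each array minus the mean of that gene over the 6 wild-type arrays, with genes in rows by role and arrays in columns. The columns of double-knockout replicates 3 and 5 are low across most rows, those of wild-type replicate 6 and double-knockout replicate 4 are high in most, and Herc6 is low on all 6 double-knockout arrays.

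Without double-knockout replicates 3 and 5, 14 of the 38 members had the lower mean and the median difference was 0.013. Leaving out the lowest arrays moves most means up by choice, so this is a description of how much rests on them and not a test. Herc6 (-0.48), Oas3 (-0.22), Oas2 (-0.17), Oas1b (-0.15) and Rsad2 (-0.12) were then the farthest below wild type, and Irf7, next to Herc6 on all arrays, stood at -0.08, while Ifit3 stood at 0.14, Dhx58 at 0.16 and Ifih1 at 0.09. No value of adjusted p under 0.05 was found for the level of any member under any alternative, and the smallest was 0.18, for Herc6 without double-knockout replicate 1.

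Other measured features of the arrays are given beside this ordering. The arrays of narrow interquartile range given above were double-knockout replicates 3, 5 and 6, low for the members, together with wild-type replicate 6, high for them. With the interquartile range as a covariate the members' median difference was -0.06. The 14 macrophage and Kupffer cell markers averaged 9.40 to 9.56 on wild-type arrays and 9.36 to 9.58 in the double knockout, lowest on double-knockout replicate 5 (9.36) and next on wild-type replicate 6 (9.40); 7 of 14 were lower in the double knockout. With that mean as a covariate, 34 members had the lower mean in the double knockout. The 10 endothelial markers averaged 9.36 to 9.48 in wild type and 9.46, 9.49, 9.37, 9.53, 9.28 and 9.33 on double-knockout replicates 1 to 6, so replicate 5 was the lowest and replicate 4 the highest of the 12, with 8 of 10 lower in mean and 8 of 10 of larger SD in the double knockout. The 8 erythroid markers averaged 11.80 on double-knockout replicates 3 and 5, the highest of the 12 arrays. They were lowest on wild-type replicate 6 (11.41) and double-knockout replicate 4 (11.54). On these arrays they ran the other way from the members. On double-knockout replicate 6, below the wild-type range for the members, the erythroid markers were also low (11.59). The 4 bile duct markers averaged 7.60, 7.62 and 7.65 on double-knockout replicates 3, 5 and 6 and were highest on wild-type replicate 6 (8.11), and wild type as a whole ran from 7.64. The 8 stellate and mesenchymal markers averaged 9.36 and 9.43 on double-knockout replicates 3 and 5, against 9.62 on double-knockout replicate 4 and 9.63 on wild-type replicate 6. Wild-type replicates 1, 2 and 5 were also low for them (9.36, 9.38 and 9.42), as was double-knockout replicate 6 (9.41). The 6 plasmacytoid dendritic cell markers, of the cell type known for high interferon output, averaged 7.39 to 7.54 with the genotypes overlapping, and their gene means ran from 6.01 to 9.06. The neutrophil markers were lower in mean in 10 of 10 cases, 6 of them at an unadjusted limma p under 0.05, with list means of 11.30 to 11.50 in wild type and 11.19 to 11.33 in the double knockout. The lymphoid markers were lower in 8 of 11, 4 of them at that level, with list means of 7.24 to 7.34 and 7.07 to 7.24. Over all genes 41.0% were lower, 1.28% were lower at that level, and 55.9% had the larger SD in the double knockout. Exocrine pancreas markers averaged 7.41 on double-knockout replicate 3 and 10.89 on replicate 5, so these arrays were near opposite ends of that list, and intestine markers averaged 9.09 on wild-type replicate 6 against 7.76 to 8.07 on the other wild-type arrays. The part of macrophage, erythroid, bile duct, stellate, neutrophil, lymphoid, endothelial, pancreatic or intestinal RNA in the members' values was not tested.

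The interferon genes and their receptors were divided in direction. Of the 16 measured interferon genes, 6 were lower and 10 higher in the double knockout, 0 at an unadjusted limma p under 0.05, and their mean per array ran from 6.40 to 6.60. The 3 of smallest p were Ifna13 (0.11), Ifna14 (0.07) and Ifna11 (0.05), at mean levels of 5.08, 7.47 and 4.64. Mean levels of the 16 genes ran from 4.64 to 9.32, and how far they exceed background is not known. Of 10 receptor and transducer genes, 5 were lower, and Stat3, a transducer also of interleukin signals, was the 1 with an unadjusted limma p under 0.05, at 10.93 ± 0.05 in wild type against 10.79 ± 0.12 in the double knockout, a difference of -0.14 (limma adjusted p = 0.99). Il10rb (-0.09) and Jak2 (0.05) followed. Of 12 genes that restrain the pathway, 8 were lower and 0 had an unadjusted p under 0.05, with Socs1 at 0.08, Trim24 at -0.06 and Pias1 at -0.06. Of 18 genes of nucleic acid sensing upstream of interferon, 11 were lower, 2 of them at an unadjusted limma p under 0.05: Irf8 (-0.13), a factor of myeloid cells, and Unc93b1 (-0.15), which carries Toll-like receptors to endosomes. Irak1 (-0.08) was next. Double-knockout replicate 5 was among the 3 lowest arrays for 13 of these 18, against 32.4% of all genes. No gene of these lists passed the threshold. Over all genes 41.0% were lower, and 3.93% had an unadjusted limma p under 0.05.

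A further list of 63 measured interferon-induced genes, not among the 43, had the same direction at a smaller size. Of these, 50 were lower in mean in the double knockout, against 41.0% of all genes, with a median difference of -0.04, and 0 passed the threshold. At an unadjusted limma p under 0.05, 5 were lower and 0 higher, against 1.28% of all genes lower at that level. Ifi205, of the family of DNA-binding PYHIN proteins, was at 7.55 ± 0.11 in wild type against 7.20 ± 0.32 in the double knockout, a difference of -0.35 (limma adjusted p = 0.99). Tap1, the peptide transporter of antigen presentation, differed by -0.15 and Xdh, xanthine dehydrogenase, by -0.17. The SD was larger in the double knockout for 45 of the 63, against 55.9% of all genes, with a median ratio of 1.36, against 1.08. Double-knockout replicate 5 was the lowest array for 29. It was among the 3 lowest for 47, replicate 3 for 33 and replicate 6 for 36. Over all genes, replicates 5, 3 and 6 were among the 3 lowest for 32.4%, 19.4% and 32.5%. The mean over the list was 8.42 and 8.35 on double-knockout replicates 3 and 5 and 8.53 to 8.64 on the wild-type arrays. This list was drawn up with earlier results known and is measured on the same arrays, so it is not independent of the members.

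Members with and without an ISRE core match were set side by side, and their difference was not tested. Of the 27 measured members in the promoter table, 9 held a match and 18 did not. The lower mean was in the double knockout for 8 of 9 and 16 of 18, with median differences of -0.14 and -0.09. The larger SD was there for 6 of 9 and 17 of 18, with median ratios of 1.80 and 1.66. Herc6, whose difference was the largest, held 0 matches in the 250 bases printed above. Ifit3 and Ifit1, which held 2 each, were among the members whose double-knockout arrays spread farthest (SDs of 0.68 and 0.53). Their SD ratios were 1.82 and 2.30. Irgm1, Bst2, Oas1a and Gbp3 also held 2 each, and their SD ratios were 1.89, 1.32, 0.90 and 0.79. The members also share chromosomes: 6 each lie on chromosomes 5, 11 and 16, and 3 each on chromosomes 6, 12 and 19, where the Ifit genes stand together.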

How the data were processed

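Total RNA of fetal livers, measured on 12 arrays (6 per genotype), was extracted with Trizol, and 250 ng per sample was labelled with the Ambion WT Expression Kit, per the labels' protocols. The values the authors deposited are log2 expression per probe set, processed with Affymetrix Expression Console per the submitters' processing notes. Summarisation, background correction and annotation release were not given in the sources used here. Scanner files were not used here. The number of arrays limits the precision, and the median standard error of a difference was 0.057.

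The table holds 28815 probe sets. The platform's gene table lists 23385, of which 21780 name 1 gene and 1605 several, and 5430 are unlisted. Of those naming 1 gene, 21689 had a gene ID found in RefSeq tables of GRCm38.p6 and took the symbol given there, changed or not. The RefSeq tables were used for names, gene order and promoters. Of the 19935 genes, 998 had more than 1 probe set, and the brightest was used.

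The genotype difference was fitted in R 4.3.3 with limma 3.58.1 (lmFit, eBayes), without covariates and 2-sided. Its p-values were adjusted by Benjamini-Hochberg over the 19935 genes, with 0.05 as the threshold. Spread was compared by the same fit on absolute deviations from the genotype mean, scaled for sample size. Both were tested on simulated data of 19935 genes. The level test recovered 76% of 50 genes at 1.25-fold, 94% at 1.5-fold and 100% at 2-fold and 3-fold, with 17 false calls. Noise was drawn independently for each gene and 200 genes were changed, so these shares are not the power of the real comparison.

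The members, the gene lists, the alternatives and the naming rule were chosen with earlier results of these data known. By that rule, values over the arrays (each array, or the lowest, median and highest of a genotype) are given for the 2 members of smallest p and the 1 of largest SD ratio in each role and the 3 highest and 3 lowest members, and for each pathway list the 3 genes of smallest p. Other values of members are given as differences or ranges. Alternatives were other normalizations, leaving out dim genes or arrays, a trended prior, array weights, a replicate block, covariates and averaged probe sets. The counts of genes called for spread, and of members lowest on an array, under each alternative were added after the data were seen.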

Additional observations from a re-analysis of the deposited data

Results flagged for a closer look

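Within genotypes, 2 of the 76 groups of 6 arrays tested (38 members in each genotype) held 1 array far from the rest by Dixon's test, where chance alone flags about 1 in 20. Oas2, an oligoadenylate synthetase, read 8.34 on double-knockout replicate 4, and the next highest double-knockout array read 7.97, a gap of 0.641 of the range of the group. Mx1, a GTPase that blocks influenza virus, read 6.22 on double-knockout replicate 1 and 6.03 on the next highest, a gap of 0.826 of the range. Neither array was far from the rest for the other gene: Oas2 read 7.97 on replicate 1, and Mx1 read 6.01 on replicate 4.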

How the results depend on the processing

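No member passed the threshold for its level under any alternative. Of 864 member differences recomputed, 813 kept their direction and 51 turned. Part of the 813 could not turn. The exact permutation test, the trended prior, the replicate block and leaving out dim genes do not change a difference. Averaging probe sets could change Irf1 alone. Without double-knockout replicates 3 and 5 together, 14 members had the lower mean and 20 the larger SD, and 22 differences turned: Ddx58 0.066, Ifih1 0.087, Dhx58 0.16, Zbp1 0.013, Irf9 0.013, Irf1 0.047, Oas1a 0.010, Oasl1 0.030, Oasl2 0.015, Ifit1 0.038, Ifit2 0.035, Ifit3 0.14, Usp18 0.0056, Mx1 0.011, Isg20 -0.0048, Samd9l 0.044, Eif2ak2 0.046, Parp9 0.013, Parp14 0.053, Rtp4 0.060, Xaf1 0.070 and Irgm1 0.050. With fewer arrays and the lowest ones left out, most means move up by construction. Quantile normalization turned Gbp3 (-0.011), scaling turned Gbp3 (-0.0016) and Isg20 (-0.00031), array weights turned Dhx58 (0.061), Zbp1 (0.00068) and Mx1 (0.023), averaged probe sets turned Irf1 (0.016), and the interquartile-range covariate turned Dhx58 (0.035). Leaving out 1 array turned 21 differences in 9 members, with ranges of -0.059 to 0.066 for Gbp3, -0.0082 to 0.038 for Isg20, -0.068 to 0.089 for Dhx58, -0.035 to 0.011 for Zbp1, -0.072 to 0.020 for Ifit2, -0.048 to 0.033 for Mx1, -0.12 to 0.0093 for Xaf1, -0.060 to 0.071 for Cmpk2 and -0.12 to 0.0077 for Ifih1. The cause was not tested.

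Members called for spread numbered 2 with scaled arrays, 1 with array weights, 1 among the 28 above the median level, and 0 to 4 leaving out 1 array. Genes called for spread ran from 0 to 87. Genes called for level numbered 5 with the macrophage covariate, which left 10 members with the larger SD, and 2 to 6 leaving out 1 array (6 without double-knockout replicate 2). The labels give both genotypes replicates 1 to 6. Samples of one number had deviations correlating at 0.20, -0.18, 0.22, 0.33, 0.17 and 0.49, 5 of 6 over 0.1. Replicate 2 fell short of the rule that every pair exceed 0.1, so the block is given here alone. Of the wild-type samples, 4 of 6 correlated best with their own number, a hint from the data and not from the design. With the replicate block 2 genes were called for level (Pyurf was lost) and no member call changed. The count of larger SDs has no value under the block, the trended prior or the array weights.

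The number of arrays limits precision: differences inside the confidence intervals shown cannot be resolved. Signal over background was not measured here.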
